A study of Mus musculus with 6 samples.

Results

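Prss23, Ltc4s, Spock2, Itih5 and Islr2 are 5 of the 31055 genes measured. They were chosen by their p-values for a rise in endothelial cells of Dsp-haploinsufficient mouse hearts, which were among the lowest, so the rise itself is given here as a description, without a test. The question put to the data was how much of that rise went with the number of venous or endocardial cells among the endothelial cells. EGFP-positive cells were sorted from the non-myocyte fraction of whole hearts and measured by 10x single-cell RNA sequencing, in 3 control libraries (Wt1CreERT2:Rosa26mTmG) and 3 Dsp_het libraries (Wt1CreERT2:Rosa26mTmG:DspW/F). All mice were C57BL/6 and 3 to 6 months old, and controls as well as Dsp_het mice carried the Cre driver and the reporter. The Wt1 promoter drives a tamoxifen-dependent Cre, so loss of 1 Dsp allele and the EGFP label are limited to cells that had active Cre and to their descendants. When Cre was induced is not given in the sources used here. Nothing in the labels says whether each library came from 1 animal, so p-values measure the spread between these libraries.

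Prss23 encodes a secreted serine protease that has been linked to the change of endocardial cells into valve mesenchyme. Ltc4s encodes leukotriene C4 synthase, the membrane enzyme that joins glutathione to leukotriene A4 and so makes the first cysteinyl leukotriene, and is best known from myeloid cells. Spock2 (testican-2) is a proteoglycan of the extracellular matrix, and Itih5 is a secreted heavy chain of the inter-alpha-trypsin inhibitor family, whose members bind hyaluronan. Islr2 (Linx) is a membrane protein with leucine-rich repeats and an immunoglobulin domain, known from neurons. Veins, arteries, capillaries and the endocardium are lined by endothelial cells that differ in the genes they use. Nr2f2 is a transcription factor of venous identity, Vwf is a clotting protein that is high in veins and endocardium, and Npr3 is a natriuretic peptide receptor used as an endocardial marker.

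The 5 genes are protein-coding and lie on 5 chromosomes of GRCm38 (GENCODE M21, matched by symbol). Prss23 is at chr7:89507783-89527187 (minus strand), Ltc4s at chr11:50236461-50238616 (minus), Spock2 at chr10:60106219-60135198 (plus), Itih5 at chr2:10153571-10256529 (plus) and Islr2 at chr9:58196297-58204319 (minus). The antisense gene Prss23os overlaps 1867 bases of Prss23, and the antisense gene Gm26542 overlaps 1664 bases of Ltc4s. The annotated span of Islr, a related gene on the same strand, covers 8010 of the 8023 bases of Islr2, and a pseudogene overlaps Islr2 on the other strand. Whether the counting used the strand is not given in the sources used here, so reads of these overlapping genes may have been split or left out. RefSeq promoter windows (GRCm38.p6, 250 bases before to 50 after a start site, the window nearest to the start of a principal transcript) were found for all 5. They were searched on both strands for the exact letters of 3 motifs, so other forms of these sites were not looked for. The half-site of nuclear receptors such as Nr2f2 (AGGTCA) was in none of the 5 windows, against 16.3% of all 32851 windows. The CAGGAAG form of the site of ETS factors, a family active in endothelium, was in none, against 13.3%. The AGATAA form of the site of Gata4 and its relatives was in none, against 11.2%. The GC box (GGGCGG) was searched after that, with overlapping matches counted separately, and was in 2 of the 5 windows, Prss23 and Itih5, with 3 matches each, against 35.7% of all windows. The windows of Prss23 and Itih5 are shown for these matches, in capitals, and that of Ltc4s, the member with the lowest p, as one with no match.
Prss23, chr7:89517537-89517836, minus strand: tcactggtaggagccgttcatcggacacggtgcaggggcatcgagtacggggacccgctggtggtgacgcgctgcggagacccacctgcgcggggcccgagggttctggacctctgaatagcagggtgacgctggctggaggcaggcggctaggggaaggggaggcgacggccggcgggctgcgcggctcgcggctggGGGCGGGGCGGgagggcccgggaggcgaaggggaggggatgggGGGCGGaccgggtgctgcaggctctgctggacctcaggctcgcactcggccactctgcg
Itih5, chr2:10153293-10153592, plus strand: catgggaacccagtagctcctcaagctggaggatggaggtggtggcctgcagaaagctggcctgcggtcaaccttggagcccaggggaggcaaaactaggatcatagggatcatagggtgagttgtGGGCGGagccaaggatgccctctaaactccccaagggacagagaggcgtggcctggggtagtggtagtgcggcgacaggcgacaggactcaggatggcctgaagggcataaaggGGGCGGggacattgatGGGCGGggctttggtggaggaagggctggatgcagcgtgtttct
Ltc4s, chr11:50238483-50238782, minus strand: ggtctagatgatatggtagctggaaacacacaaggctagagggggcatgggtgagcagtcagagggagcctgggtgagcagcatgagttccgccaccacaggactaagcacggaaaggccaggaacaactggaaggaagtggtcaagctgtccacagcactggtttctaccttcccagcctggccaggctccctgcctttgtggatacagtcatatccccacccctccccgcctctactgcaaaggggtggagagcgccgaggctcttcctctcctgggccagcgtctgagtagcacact

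Library totals ranged from 7573157 to 17083660 UMIs, and 16303 of 18283 barcodes were kept, 10061 of them endothelial-like. Of the barcodes, 1689 occurred in several libraries, and 5092 of 18283 were copies, meaning occurrences outside the library that held the most UMIs of that barcode, at least 0.5 of the total. Copies made up 2.98% of the venous cluster but 52.9% of the endocardial cluster, so the endocardial share is also given without them. Dsp, the deleted gene, was seen with only 19 UMIs in control and 16 in Dsp_het endothelial-like cells. Levels are given in CPM (counts-per-million), meaning UMIs of the gene scaled to the UMIs of all genes in the cells described. In epicardial-like cells Dsp was at 16.4 ± 6.32 CPM (SD, n = 3) in control and 8.66 ± 1.95 in Dsp_het libraries. Whether the reads lie in the deleted part is not known, so this does not check the genotype. The 14 endothelial markers were all present in the venous cluster, among them Pecam1 at 503 to 743 and Cdh5 at 622 to 797 CPM over the 6 libraries.

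All 5 members were higher in the endothelial-like cells of each Dsp_het library than in any control library. Prss23 was at 29.0, 28.8 and 33.8 CPM in control replicates 1 to 3 and at 59.9, 62.5 and 92.8 in Dsp_het replicates 1 to 3, a log2 fold change of 1.21 (SE 0.17, edgeR). Dsp_het replicate 3 stood highest and the other two lay close together. Ltc4s was at 32.9, 26.8 and 25.1 in control and at 50.7, 47.3 and 54.9 in Dsp_het libraries, a log2 fold change of 0.85 (SE 0.12). It had the smallest rise of the 5 genes and the smallest spread in the Dsp_het group relative to its mean.

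Of the matrix genes, Spock2 was at 9.28, 9.12 and 6.54 in control and at 11.7, 21.5 and 30.2 in Dsp_het libraries, with a log2 fold change of 1.34 (SE 0.29). The lowest Dsp_het value of Spock2 was near the highest control value. Itih5 was at 8.16, 5.67 and 6.94 in control and at 23.8, 11.4 and 20.6 in Dsp_het libraries, with a log2 fold change of 1.40 (SE 0.26). Its lowest Dsp_het library was replicate 2, whereas that of Spock2 was replicate 1. Islr2 was at 2.01, 1.62 and 2.28 in control and at 5.62, 5.80 and 8.94 in Dsp_het libraries, with a log2 fold change of 1.71 (SE 0.30). Islr2 rested on few molecules, 47 UMIs in all control and 117 in all Dsp_het endothelial-like cells, against 714 and 1240 for Prss23. Islr, whose span covers Islr2, was at 3.52 ± 2.32 and 3.98 ± 2.39 (SD, n = 3, TMM-scaled). Whether reads of Islr had a part in the Islr2 counts was not tested.

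**Figure D1:**
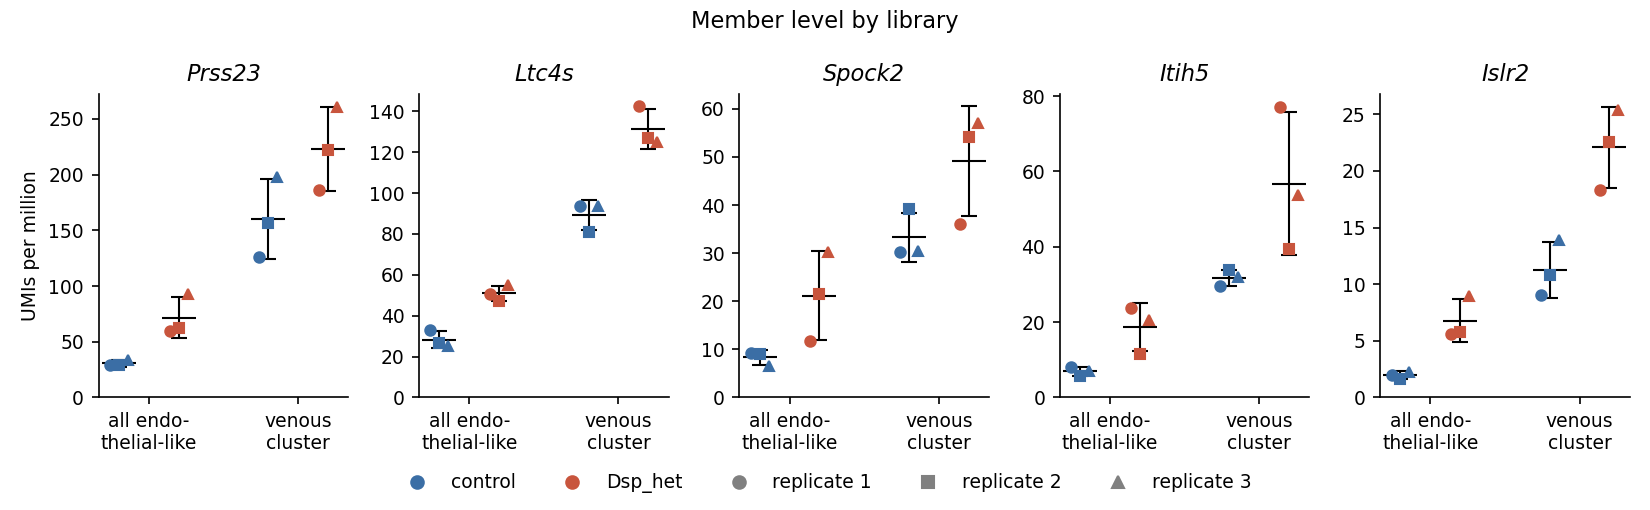
CPM of each member by library (circle, square and triangle for replicates 1, 2 and 3) in all endothelial-like cells and in the venous cluster. Bars are the mean and SD of 3 libraries. Every member was higher in all Dsp_het than in all control libraries over all endothelial-like cells, and in the venous cluster Prss23 and Spock2 overlapped between groups.

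A count of such separated genes needs its background. Over all 11300 genes tested in endothelial-like cells, 4.44% were higher in every Dsp_het than in every control library, and the members are among them by choice. With edgeR's quasi-likelihood test and Benjamini-Hochberg adjustment over all genes, 0 of 11300 genes (0%), and so none of the 5 members, passed 0.05, with 525 genes (4.65%) at an unadjusted p under 0.05 and 13 genes (0.115%) called by DESeq2. In this clustering the members were ranks 2 (Prss23), 1 (Ltc4s), 13 (Spock2), 5 (Itih5) and 4 (Islr2) by p among genes that were higher. C3, a complement gene and no member, took rank 3 with a log2 fold change of 1.28 (SE 0.19). Slc26a10, Pttg1 and Pthlh, just beyond Itih5 at ranks 6 to 8, had 0.81 (SE 0.16), 0.71 (SE 0.14) and 1.91 (SE 0.40). The members are therefore a selection from the top of the list and not its strict head.

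Within the endothelium, the members were concentrated in the venous cluster, 1610 cells led by Serpina1b, Vwf and Rasa4 against all other cells, with Nr2f2 among the top 10 genes. Against the other endothelial clusters Serpina1b led, Prss23 itself came next, and Nr2f2 was again among the top 10. The clusters were computed without the 5 members. That cluster held 16% of endothelial-like cells and 21.3% of their UMIs. It held 86.5% of all endothelial Prss23 UMIs (1691 of 1954), 64.1% of Ltc4s (994 of 1550), 66.3% of Spock2 (360 of 543), 81.2% of Itih5 (401 of 494) and 91.5% of Islr2 (150 of 164). For comparison it held 68.7% of Nr2f2 and 54.2% of Vwf UMIs. The endocardial cluster, 306 cells with 3.59% of the UMIs, had Mgp, Dcn, Cytl1 and Npr3 among its leading genes against the other endothelial clusters, of which Dcn is also a fibroblast marker. It held 19.3% of Spock2 UMIs and 8.5% of Itih5 UMIs, but only 3.74% of Prss23, 1.94% of Ltc4s and 1.22% of Islr2. Spock2 had the largest endocardial part of the 5. The endocardial cluster also held 14.5% of Nr2f2 and 39.6% of Vwf UMIs.

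The order of clusters differed between the members. Prss23 was at 192 ± 47.7 CPM in the venous cluster (SD, n = 6 libraries, both groups), 57.5 ± 49.5 in the endocardial cluster (n = 5, since control replicate 2 had 18 such cells) and 24.5 ± 10.1 in the arterial cluster, and at most 13.02 in each of the other 6. The endocardial and arterial values overlapped between libraries, while the venous range, 126 to 261, overlapped only the highest endocardial library, at 143. Ltc4s was at 111 ± 24.3 in the venous cluster, 28.8 ± 7.01 in the capillary cluster led by Timp4, 24.9 ± 10.3 in the interferon cluster and 4.90 ± 3.35 in the cluster led by Hey1 and Esm1. Its venous range, 81.0 to 143, lay above that of all other endothelial clusters, and the capillary, interferon and endocardial clusters overlapped. Spock2 was at 81.4 ± 60.0 in the endocardial and 41.2 ± 11.7 in the venous cluster, which overlapped, and at most 4.76 in the other 7. Itih5 was at 44.3 ± 18.3 in the venous and 32.3 ± 9.46 in the endocardial cluster, which overlapped, and at most 6.51 elsewhere. Islr2 was at 16.7 ± 6.52 in the venous cluster and at most 2.14 in any other, with no UMI in the angiogenic and Cyp4b1 capillary clusters.

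**Figure D2:**
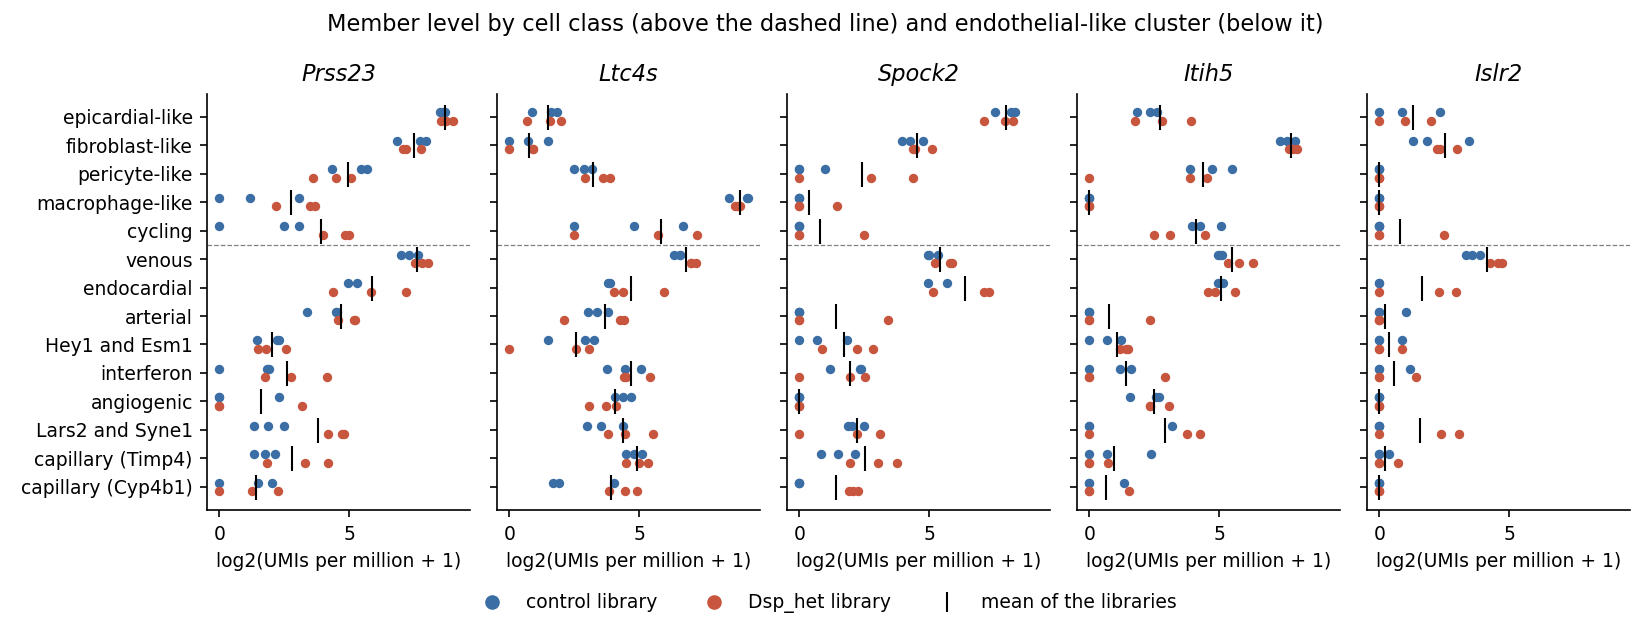
Level of each member, as log2(CPM + 1), in cell classes (above the dashed line) and endothelial-like clusters (below it). Each point is a library with at least 20 cells of that kind and the tick is the mean of the libraries. The venous cluster was the highest endothelial cluster for 4 members, the exception being Spock2, and all members but Islr2 had a higher level in a class outside the endothelium than in any endothelial cluster.

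The members' levels also differed between sub-clusters of the endothelial-like cells. At a finer resolution, 516 cells led by Cd74, Serpina1b and Igfbp5 had 299 CPM of Prss23, 171 of Ltc4s, 67.5 of Spock2, 77.7 of Itih5 and 33.1 of Islr2, all libraries pooled. A neighbouring sub-cluster of 855 cells, led by Cysltr1, AU021092 and Prg4, had 83.3, 86.8, 25.8, 21.1 and 8.68 of the same genes, each lower than in the first. In a small sub-cluster of 115 cells led by Lrg1, Vwf and Bgn, Prss23 was highest of the 3, at 445, whereas Ltc4s was at 74.2, Spock2 at 32.7, Itih5 at 13.8 and Islr2 at 3.77. Of these 3 sub-clusters, the Cd74 sub-cluster had the highest level of every member but Prss23. By the naming rule only that of 115 cells was named venous, and those of 516 and 855 cells stayed unnamed. How many cells of each lay in the venous cluster is not given here. These sub-clusters came from cells of both groups, and their levels are descriptions, with no test. Their shares in each group are not given here, so a level within the venous cluster may also move with their mix.

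Members were also seen together in single venous cells. Among 705 venous cells of control libraries, 42.4% had no UMI of any member and 6.67% had UMIs of 3 or more. Among 905 venous cells of Dsp_het libraries these shares were 35.1% and 14.1%. Outside the venous cluster, 93.2% of control and 89.9% of Dsp_het endothelial-like cells had no member UMI. Median depth in the venous cluster was 5050 UMIs per cell in control and 5005 in Dsp_het libraries. For these values cells were pooled over the libraries of each group, so they have no spread and are descriptions. Whether members met in a cell more often than their single shares give was not tested.

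The share of venous cells was higher in every Dsp_het library than in any control library. The venous cluster held 14.7%, 11.4% and 11.2% of endothelial-like cells in control and 18.8%, 19.1% and 26.8% in Dsp_het libraries. The means were 12.4 ± 1.93% and 21.6 ± 4.50% (SD, n = 3), and the two-sided exact permutation test gave p = 0.1, the smallest p that 3 against 3 libraries can reach. This share is not independent of the way the members were picked, because the venous cluster held most of their UMIs. After each cell was thinned to 1000 UMIs, cells with an Nr2f2 UMI were 3.13 ± 0.82% in control and 5.32 ± 0.90% in Dsp_het libraries (exact p = 0.1), and the groups did not overlap. Cells with a Vwf UMI were 4.93 ± 1.08% and 6.78 ± 1.72% (exact p = 0.2), and the groups overlapped. Both genes were also high in the endocardial cluster. As a mean of libraries, Nr2f2 was at 264 CPM there and 203 in the venous cluster, and Vwf at 1896 and 408. Shares of cells with these UMIs therefore do not separate venous from endocardial cells. In these sorted cells a share can move because of a rise in one cell type or a loss of others, and the 2 cannot be told apart.

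The endocardial share did not separate the groups. It was 2.54%, 1.42% and 3.36% in control and 2.89%, 3.58% and 5.48% in Dsp_het libraries (exact permutation test, two-sided p = 0.2). Without copies of barcodes it fell to 1.10%, 0.96% and 1.86% in control and 1.79%, 0.89% and 2.83% in Dsp_het libraries (exact p = 0.7). Npr3, by edgeR over all endothelial-like cells, had a log2 fold change of 0.24 (SE 0.24). Of the 12 endocardial markers tested, 11 had a positive log2 fold change (median 0.36), and of the 11 venous markers tested all 11 did (median 0.50), against 50.2% and a median of 0.00 over all 11300 genes, but none of them passed at an adjusted p of 0.05. Vcam1, an adhesion molecule for leukocytes, had the lowest p of the venous markers, with 76.7 ± 18.4 in control and 149 ± 38.4 in Dsp_het libraries (TMM-scaled).

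**Figure D3:**
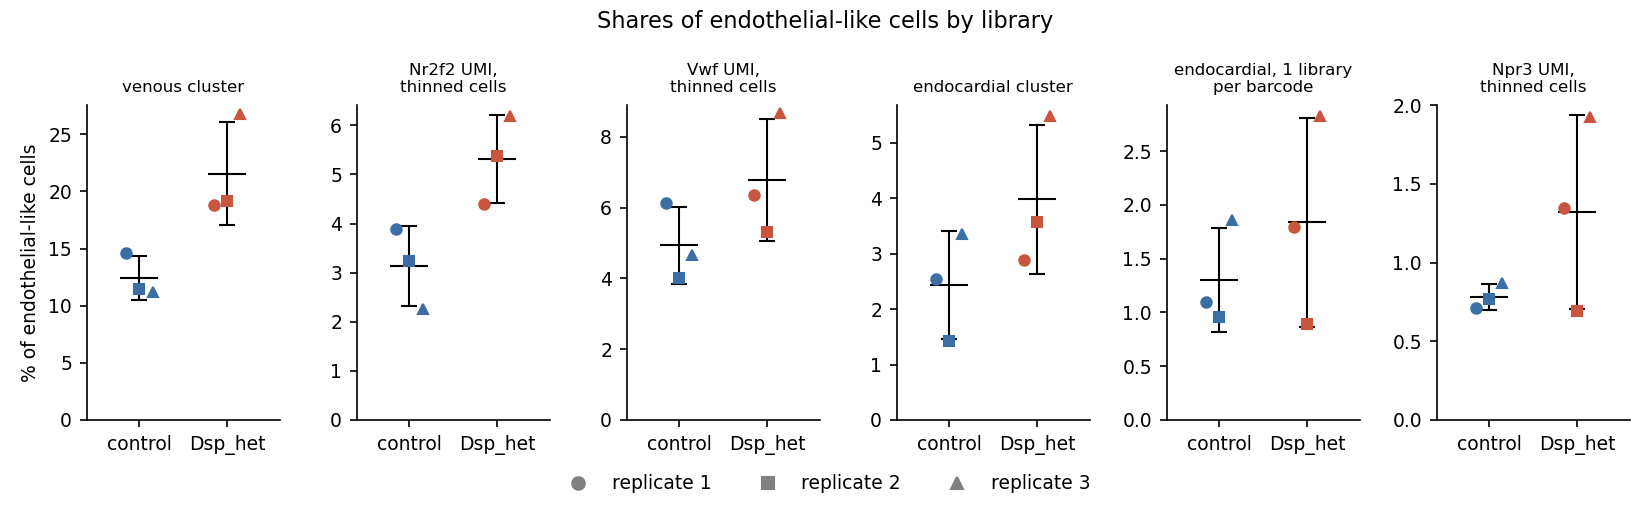
Percent of endothelial-like cells in the venous and endocardial clusters, and percent with a UMI of Nr2f2, Vwf or Npr3 after thinning to 1000 UMIs per cell, by library (circle, square and triangle for replicates 1, 2 and 3). Bars are the mean and SD of 3 libraries. The venous share and the Nr2f2 share did not overlap between control and Dsp_het libraries, and the other 3 measures did.

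Within the venous cluster the members were still higher on average in Dsp_het libraries, by less than over all endothelial-like cells. Prss23 was at 126, 157 and 198 CPM in control and at 186, 222 and 261 in Dsp_het libraries, a log2 fold change of 0.47 (SE 0.17), and the groups overlapped. Ltc4s was at 93.7, 81.0 and 93.7 in control and at 143, 127 and 125 in Dsp_het libraries, a log2 fold change of 0.55 (SE 0.15), with no overlap. Spock2 was at 30.2, 39.1 and 30.5 in control and at 36.0, 54.2 and 57.0 in Dsp_het libraries, a log2 fold change of 0.59 (SE 0.21), with overlap. The serine protease and the testican thus lost their separation once the cells were limited to this cluster, and leukotriene C4 synthase kept it.

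Itih5 was at 29.6, 33.7 and 31.9 in control and at 77.1, 39.3 and 53.9 in Dsp_het venous cells, a log2 fold change of 0.87 (SE 0.24), with no overlap. Islr2 was at 9.07, 10.8 and 13.9 in control and at 18.3, 22.6 and 25.4 in Dsp_het venous cells, a log2 fold change of 0.96 (SE 0.27), with no overlap. So 3 of the 5 members did not overlap between groups in this cluster, against 4.25% of the 9074 genes tested there, where 51.2% had a positive log2 fold change, and 0 of 9074 (0%) passed an adjusted p of 0.05 (edgeR, 305 at an unadjusted p under 0.05, and 0 by DESeq2). These are the same libraries and the same contrast that chose the members, so nothing is read from that count. Nr2f2 and Vwf, which were not chosen for a rise, had log2 fold changes of 0.11 (SE 0.17) and 0.01 (SE 0.18) in the venous cluster, against 0.69 (SE 0.22) and 0.60 (SE 0.23) over all endothelial-like cells. Some other listed markers were higher in the venous cluster by as much as the members: Vcam1 had 0.57 (SE 0.20), Plvap, a gene of the diaphragms of endothelial pores, 0.69 (SE 0.32), and the endocardial marker Cytl1 0.79 (SE 0.29). Plvap in Dsp_het replicate 2, at 24.5 CPM (TMM-scaled), lay below all control libraries. The venous markers Selp and Lrg1 had -0.14 and -0.10. There 8 of 10 venous markers tested (median 0.07) and 9 of 10 endocardial markers tested (median 0.34) had a positive log2 fold change. None passed (edgeR, adjusted p of 0.05), and the groups overlapped for all of them. Of 10 immediate early and heat-shock genes all 10 had a lower mean in Dsp_het venous cells, with a median log2 fold change of -0.60, and none passed at an adjusted p of 0.05 (edgeR). The control libraries were split: Hspa1a, a heat-shock gene, was at 31.2, 595 and 446 CPM in control and 87.6, 67.7 and 245 in Dsp_het venous cells (TMM-scaled), so that control replicate 1 lay below all Dsp_het libraries. Jun, an immediate early gene, had the same order, with 587, 1868 and 1583 in control and 799, 962 and 1073 in Dsp_het libraries. Their part in the members' levels was not tested.

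Thinned to 1000 UMIs per cell, venous cells with a UMI of Ltc4s were 6.83 ± 2.35% in control and 11.1 ± 0.89% in Dsp_het libraries (26.4% and 34.7% before thinning). For Itih5 they were 1.57 ± 0.15% and 5.13 ± 2.60% (9.77% and 16.7% before thinning). These 2 members did not overlap between groups, and Prss23, Spock2 and Islr2 did. The share of all genes without overlap by this measure was not computed, so nothing is read from that count. Thinning left out 15 control and 30 Dsp_het venous cells. As a background, fibroblast-like cells had a Ltc4s UMI in 0.32% of control and 0.35% of Dsp_het cells before thinning, with median depths of 1029 and 5495 UMIs.

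Outside the venous and endocardial clusters only Prss23 and Ltc4s passed the filter on low counts. Prss23 had a log2 fold change of 1.20 (SE 0.33) there and Ltc4s one of 0.30 (SE 0.15). The Prss23 value came from low levels. In the arterial cluster Prss23 was at 9.35, 21.3 and 21.8 in control and 35.0, 36.8 and 22.9 in Dsp_het libraries, with no overlap. In the cluster led by Lars2 and Syne1, cells of low depth, it was at 1.54, 4.65 and 2.66 in control and 25.7, 26.6 and 16.9 in Dsp_het libraries, on 4 and 25 UMIs. The venous marker Nr2f2 was also higher in Dsp_het libraries in both clusters, without overlap. Its log2 ratio was 2.68 in the arterial cluster, on 3 and 11 UMIs, and 1.005 in the other, on 28 and 38. Vwf overlapped between groups in both, with log2 ratios of -0.82 and 0.22. Whether venous cells or their RNA within these clusters carried part of the Prss23 rise was not tested. In the endocardial cluster Spock2 was at 51.1 and 29.6 in control replicates 1 and 3 and at 34.1, 136 and 156 in Dsp_het libraries, and the groups overlapped. Control replicate 2, with 18 cells and under the limit of 20 cells, is left out.

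The part of the rise that goes with the cluster shares was then computed in 3 ways, none of which is a test. Shares here are those of endothelial-like UMIs and not of cells. The venous cluster held a mean of 16.7% of these UMIs in control and 27.9% in Dsp_het libraries. First, every library was given the same mix of 13 endothelial sub-clusters. The log2 ratio of Dsp_het to control then was 0.70 for Prss23, 0.54 for Ltc4s, 0.65 for Spock2, 0.78 for Itih5 and 1.07 for Islr2. At the observed mix these ratios were 1.23, 0.85, 1.34, 1.43 and 1.78. Each member thus kept a positive ratio at a fixed mix and each ratio was smaller than the observed one.

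At the fixed mix Prss23 was at 38.0 ± 8.15 in control and 61.9 ± 14.1 in Dsp_het libraries, Ltc4s at 30.8 ± 1.10 and 44.7 ± 5.84, Itih5 at 9.26 ± 0.84 and 15.9 ± 3.59, and Islr2 at 2.63 ± 0.56 and 5.53 ± 1.22 (SD, n = 3), all without overlap. Spock2, at 11.01 ± 3.21 and 17.3 ± 6.83, overlapped between groups. At a fixed mix the share of all genes without overlap was not computed, so nothing is read from the number of members without it. With 24 finer sub-clusters the ratio of Prss23 was 0.46, with overlap between the groups, and that of Spock2 was 0.67. With every one of the 13 weighted equally, Spock2 was at 0.24, and the other 4 members were between 0.52 and 1.11, with overlap for Itih5.

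Second, the difference in level was split into a term from cluster shares and a term from levels within clusters. Over the 9 clusters, shares carried 50.2% of the Prss23 difference, 42.0% for Ltc4s, 35.9% for Spock2, 41.8% for Itih5 and 37.8% for Islr2. Of the 41.2 CPM by which Prss23 was higher, 21.5 came from the venous share, 0.30 from the endocardial share and 15.8 from the level within the venous cluster. For Spock2, 4.65 of 12.8 came from the venous share and 0.49 from the endocardial share, with 3.73 from the venous and 2.16 from the endocardial level. For Islr2, 1.87 of 4.82 came from the venous share and 2.54 from the venous level. Over these 9 clusters the endocardial share carried at most 0.49 CPM, for Spock2. That value depends on which cells are named endocardial. Among the 13 sub-clusters, those of 593 and 191 cells were named endocardial, and that of 1232 cells led by Cysltr1, Rasa4 and Nr2f2 stayed unnamed. Venous and endocardial terms were computed for the 9 clusters only. With the 25 finer sub-clusters the part from shares was between 43.9% (Spock2) and 60.7% (Prss23), so the split depends on how finely the cells are divided.

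In the last way, control levels in each of the 9 clusters were combined with the Dsp_het shares of UMIs. This gave a log2 ratio of 0.64 for Prss23, 0.33 for Ltc4s, 0.54 for Spock2, 0.59 for Itih5 and 0.69 for Islr2, each below the observed ratio. For Nr2f2 shares alone gave 0.51 against 0.70 observed, for Vwf 0.49 against 0.61, and for Npr3 0.24 against 0.30. The members' observed ratios are raised by their choice for a rise in these libraries, so nothing is read from a comparison with these markers.

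**Figure D4:**
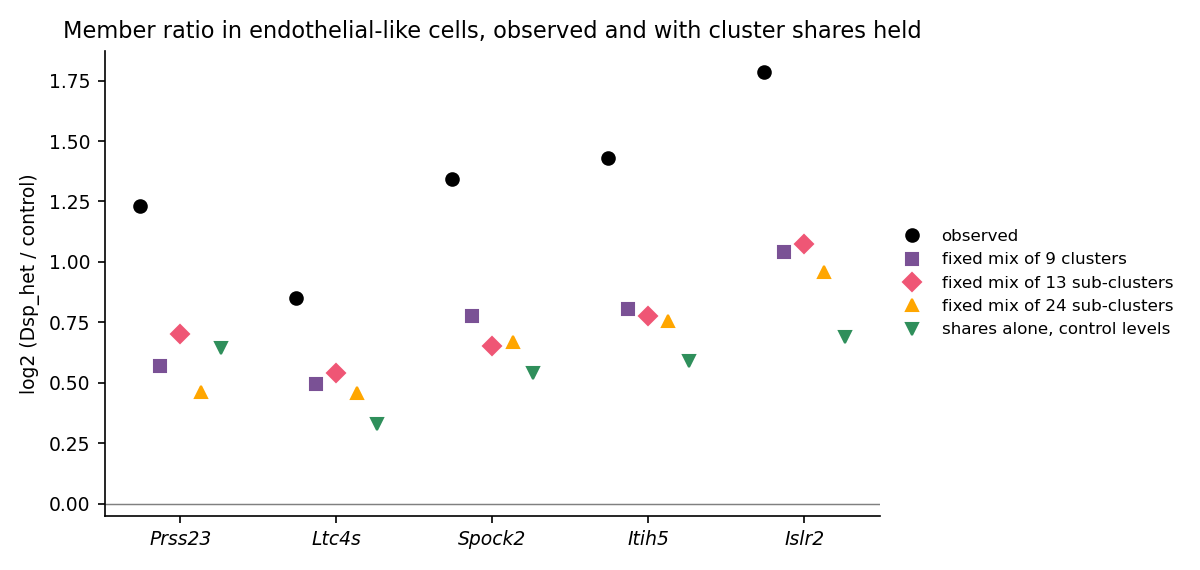
Log2 ratio of Dsp_het to control in endothelial-like cells for each member: observed, at a fixed mix of 9 clusters, 13 or 24 sub-clusters, and with control levels and changed shares alone. All values were above 0, and each value with the mix held was below the observed one.

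The same was done for every gene of the venous cluster, meaning at least 4 times higher there than in the other endothelial-like cells of control libraries, with at least 40 control UMIs. This list was made after the data were seen, and its limit on UMIs keeps all 5 members in. Besides the members it held 144 genes, of which 140 were higher in Dsp_het endothelial-like cells, against 5468 of all 11009 genes. Their median log2 ratio was 0.62 observed and 0.45 from shares alone, against a median of 0.00 for both over 11009 genes. The observed ratio was above the one from shares alone in 103 of the 144, against 5482 of all 11009 genes. The members ranked 2 (Islr2), 3 (Itih5), 7 (Spock2), 14 (Prss23) and 41 (Ltc4s) of 149 by observed ratio, a place that their choice by lowest p favours. Pthlh, which encodes a parathyroid hormone-like peptide, stood first at 1.98, and Il33, an alarmin cytokine, had rank 4 at 1.42.

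**Figure D5:**
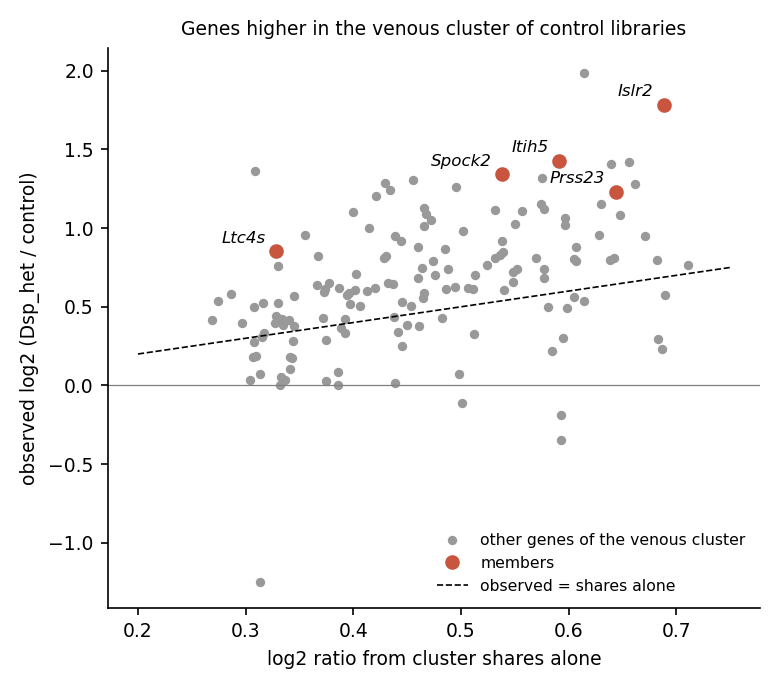
Observed log2 ratio of Dsp_het to control in endothelial-like cells against the ratio from cluster shares alone, for 144 other genes of the venous cluster (grey) and the 5 members (red). On the dashed line both are equal. The members lie above the line, as do 103 of the other genes. Of all 11009 genes tested with at least 40 control UMIs, 5482 had an observed ratio above the one from shares alone.

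In other cell classes no member passed a test. Among classes with enough cells for a value per library, Prss23 was highest in epicardial-like cells, at 386, 356 and 413 CPM in control and 371, 510 and 426 in Dsp_het libraries, a log2 fold change of 0.19 (SE 0.15, adjusted p = 1.00 by edgeR). In fibroblast-like cells it was at 114, 209 and 246 in control and 144, 218 and 134 in Dsp_het libraries, with a log2 fold change of -0.22 (SE 0.25, adjusted p = 1.00 by edgeR), which is 0.036 without control replicate 3. The groups overlapped for Prss23 in both classes. Spock2 was also highest in epicardial-like cells, at 137 to 318, with a log2 fold change of -0.17 (SE 0.25, adjusted p = 1.00 by edgeR), which is 0.11 without Dsp_het replicate 1. In fibroblast-like cells Spock2 had 0.34 (SE 0.28, adjusted p = 1.00 by edgeR).

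Among the same classes Itih5 was highest in fibroblast-like cells, at 197, 162 and 241 in control and 226, 207 and 254 in Dsp_het libraries, a log2 fold change of 0.18 (SE 0.16, adjusted p = 1.00 by edgeR), and the groups overlapped. Ltc4s was highest in macrophage-like cells, at 573, 353 and 579 in control and 472, 409.6 and 431 in Dsp_het libraries, with a log2 fold change of -0.28 (SE 0.19, adjusted p = 0.90 by edgeR). Thus none of the 6 values passed, in classes where edgeR called 1 of 8778 genes in fibroblast-like (0.0114%), 0 of 8742 in epicardial-like (0%) and 0 of 5255 in macrophage-like cells (0%). At an unadjusted p under 0.05 these had 269 (3.06%), 297 (3.4%) and 323 genes (6.15%), and DESeq2 called 1, 0 and 0. Groups did not overlap for 7.96% of genes in fibroblast-like and 8.28% in epicardial-like cells, in either direction, and for none of the members tested there. A positive log2 fold change was found for 50.7% and 50.1% of genes. Islr2 was too low for a test outside the venous cluster and endothelial-like cells as a whole, and no member passed the filter in pericyte-like cells, where 0 of 3265 genes were called (0%, 351 or 10.8% at an unadjusted p under 0.05, and 0 by DESeq2). Copies of barcodes made up 71.3% of control and 55.0% of Dsp_het epicardial-like cells (16.9% and 8.73% of their UMIs), and 51.2% and 37.8% of fibroblast-like cells. In macrophage-like cells they were 53.2% and 81.9%, with 7.75% and 21.8% of the UMIs. Without copies the log2 fold changes were 0.27 and -0.22 for Prss23 in epicardial-like and fibroblast-like cells, -0.23 and 0.42 for Spock2, 0.21 for Itih5, and -0.57 for Ltc4s in macrophage-like cells (SE 0.28, adjusted p = 0.98 by edgeR). The Ltc4s value thus moved most, and none passed. These tests used few cells: 135 to 748 fibroblast-like and 133 to 406 epicardial-like cells per library. Whether the endothelial and the other log2 fold changes differ was not tested.

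All 5 members had a higher mean level in fibroblast-like, epicardial-like or macrophage-like cells than in endothelial-like cells, Islr2 by little (4.77 against 4.38 CPM), so the markers of those classes were read in the endothelial-like cells. The 12 fibroblast markers summed to 212 to 354 CPM in control and 191 to 265 in Dsp_het libraries, at most 0.62% of the level in fibroblast-like cells, with none of them at 0 and 8 of 12 higher in Dsp_het. The 12 epicardial markers summed to 32.5 to 39.3 in control and 41.7 to 51.7 in Dsp_het libraries, at most 0.56% of their own class, with none at 0 and 11 of 12 higher in Dsp_het. The 12 macrophage markers summed to 24.1 to 32.9 and 11.8 to 33.4, at most 0.08% of their own class, with none at 0 and 3 of 12 higher in Dsp_het. Scaled to these sums, epicardial RNA would carry 1.44 CPM of Prss23 in control and 2.12 in Dsp_het libraries, and fibroblast RNA 0.97 and 0.98 of Itih5. Macrophage RNA would carry 0.33 and 0.23 of Ltc4s. The differences in endothelial-like cells were 41.2 for Prss23, 11.7 for Itih5 and 22.7 for Ltc4s.

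Genes that act beside each member were read from lists, and none of their members passed over all genes in endothelial-like cells (edgeR, adjusted p of 0.05). Of 18 other leukotriene genes 9 were tested, 6 higher and 3 lower, with a median log2 fold change of 0.21. Cysltr1, a receptor for cysteinyl leukotrienes, was at 20.2 ± 4.72 in control and 28.6 ± 3.15 in Dsp_het libraries (SD, n = 3, TMM-scaled), with a log2 fold change of 0.50 (SE 0.17), but -0.19 (SE 0.16) within the venous cluster. Lta4h, which turns leukotriene A4 into leukotriene B4, had -0.07 (SE 0.13). Of 24 other secreted proteases and their inhibitors 14 were tested, 10 higher and 4 lower, with a median of 0.16, among them Klk8 at 0.31 (SE 0.12) and Htra1 at 0.37 (SE 0.19).

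Of 11 other genes of the SPARC and testican family 6 were tested, 2 higher and 4 lower, with a median of -0.16. Sparcl1 and Sparc, matrix proteins, had -0.24 (SE 0.11) and -0.24 (SE 0.16). Of 22 other hyaluronan and ITIH genes 9 were tested, 5 higher and 4 lower, with a median of 0.13, among them Hyal2, a hyaluronidase, at 0.30 (SE 0.11) and Lyve1, a hyaluronan receptor, at 1.19 (SE 0.39). Of 22 other genes of the leucine-rich repeat and neurotrophin receptor list 7 were tested, 4 higher and 3 lower, with a median of 0.03, and Ret had 0.57 (SE 0.41). Of 19 genes of endothelial-mesenchymal transition 17 were tested, 11 higher and 6 lower, with a median of 0.05. Over all genes the median was 0.00, with 50.2% higher.

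Across 16 populations (the cell classes and the endothelial clusters with at least 20 cells in a library), the genes with levels most like each member were found by Pearson's r of log2(CPM + 1) among 9894 genes. These values are descriptions, since the populations share libraries and depth. For Prss23 they were Il33 (0.95), Sdc1 (0.94) and Ltbp3 (0.92), all highest in epicardial-like cells. For Ltc4s they were Casp1 (0.92), Cysltr1 (0.89) and Tnfrsf11a (0.89), all highest in macrophage-like cells. For Spock2 they were Wnt2 (0.93), Bace2 (0.93) and Ctnnal1 (0.92). For Itih5 they were Mfap5 (0.86), Zfpm2 (0.86) and Ptn (0.85), all highest in fibroblast-like cells. For Islr2 they were Nt5e (0.88), Col13a1 (0.87) and Ret (0.85), all highest in the venous cluster.

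Among themselves Prss23, Spock2, Itih5 and Islr2 were more alike than any of them was like Ltc4s. Prss23 had r = 0.86 with Spock2, 0.73 with Itih5 and 0.74 with Islr2. Itih5 and Islr2 had 0.74, Spock2 and Islr2 0.65, and Spock2 and Itih5 0.55. Ltc4s had r = -0.23 with Prss23, -0.30 with Spock2, -0.22 with Itih5 and 0.10 with Islr2. With Nr2f2, r was 0.69 for Prss23, 0.76 for Spock2, 0.72 for Itih5, 0.64 for Islr2 and -0.11 for Ltc4s. So the 5 genes shared a high level in venous endothelial cells but not their levels in other classes.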

How the data were processed

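The deposited matrix holds raw UMI counts of 31055 genes in 18283 barcodes from 6 libraries, and the authors' barcode table gives each barcode's total counts, which equal the column sums for all 18283. The submitters' processing notes name GRCm38 and Seurat. No aligner or counting program is named in the sources used here. Other deposited columns (gene symbols, barcodes and genes per barcode) carry no further measurement, and 0 columns of per-sample values were left unused. Barcodes with at least 500 UMIs, 200 genes and at most 20% mitochondrial UMIs were kept (16338). Scrublet marked 35 of these, which were left out. Under 0.5% is too few for a working doublet call, and most doublets must be taken as still present.

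Cells were clustered in scanpy 1.11.5 (2000 variable genes without the 5 members, 30 components, 15 neighbours, Leiden at resolution 1.0, 21 clusters) and named from marker lists by a scoring rule set after the clusters were seen. Endothelial-like cells were also divided into 13 and 25 sub-clusters (resolutions 1.0 and 2.0). Counts summed per library were fitted with edgeR 4.0.16 (quasi-likelihood, TMM, filterByExpr with a minimum count of 10, Benjamini-Hochberg over all genes), with DESeq2 1.42.0 as an alternative. The fit was tested on simulated data. Shares were compared with exact permutation tests.

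The members, marker lists and gene lists were chosen with earlier results of these data known. Genes named are the members, Nr2f2, Vwf and Npr3, the 3 genes most like each member, and listed genes that passed, of which there were none, by a rule set with the design. Other named genes (C3, Slc26a10, Pttg1, Pthlh, Il33, Vcam1, Plvap, Cytl1 and those of the pathway and stress lists) were chosen after their values were seen. Alternatives were another tool, no filter, a replicate block, each library left out, 1 library per barcode, a stricter cell filter (1000 UMIs, 500 genes, 10% mitochondrial) and other divisions of the cells. Fits of macrophage-like cells and of the venous cluster, the fixed mix of 9 clusters, the values from shares alone and the split of the difference were added after the data were seen.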

Additional observations from a re-analysis of the deposited data

How the results depend on the processing

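The members' log2 fold changes in endothelial-like cells were above 0 in all 57 alternative values, those in the venous cluster in all 55, and those at a fixed mix in all 50. The members were chosen for a rise in these same libraries, so nothing is read from these counts. Leaving out a library gave log2 ratios at the fixed mix of 0.51 to 0.87 (Prss23), 0.45 to 0.58 (Ltc4s), 0.38 to 0.93 (Spock2), 0.58 to 0.91 (Itih5) and 0.90 to 1.22 (Islr2). The log2 ratio of shares was 0.80 for venous cells (0.46 to 0.93 over all alternatives) and 0.71 for endocardial cells (0.41 to 1.01). Ltc4s was at 0.30 without the venous and endocardial clusters, and the venous cluster held 64.1% of its endothelial UMIs. The sign turned for Prss23 in fibroblast-like cells (-0.50 to 0.036 with a library left out, 0.036 without control replicate 3) and for Spock2 in epicardial-like cells (-0.41 to 0.11, 0.11 without Dsp_het replicate 1), and the cause was not tested. Counts of called genes depended on the setting. With no filter they were 190 (endothelial-like), 74 (fibroblast-like), 42 (epicardial-like), 25 (pericyte-like), 40 (macrophage-like) and 46 (venous cluster), against 0, 1, 0, 0, 0 and 0. DESeq2 called 13 in endothelial-like cells. Replicate numbers did not pair the samples: deviations of same-numbered libraries in endothelial-like cells correlated at 0.10, -0.04 and -0.09, and not every library correlated best with its own number. The replicate block gave 12, 5, 0 and 1 in the first 4 classes and 23 in the venous cluster. Leaving out a library gave 0 to 12, 0 to 5, 0 to 2, 0 to 30, 0 to 19 and 0 to 5 in the same order, the highest without Dsp_het replicates 2, 3, 1 and 1, control replicate 3 and Dsp_het replicate 2. The stricter cell filter gave 4 in pericyte-like cells, and 1 library per barcode gave 13 in macrophage-like cells. Depth limits Islr2 most, and the few endocardial cells limit every value there.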

Other observations

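Itih5 and Prss23 were also found in a small Schwann-like cluster of 31 cells, with 74 and 32 UMIs in all. With all libraries pooled, Itih5 was at 977 and Prss23 at 423 CPM. Ltc4s had 1 UMI there, and Spock2 and Islr2 had 0. Of these cells 83.9% were copies of barcodes found in another library. No library held enough of these cells for a comparison. An unnamed cluster of 1064 cells of low depth was led by haemoglobin genes together with the lymphatic genes Ccl21a, Mmrn1 and Lyve1. It had 65.9 ± 33.2 CPM of Prss23, 69.1 ± 17.2 of Ltc4s, 19.9 ± 10.99 of Spock2, 25.1 ± 10.4 of Itih5 and 9.01 ± 7.51 of Islr2 (SD, n = 6 libraries). Of its cells 58.2% were copies of barcodes found in another library, and its cells were left out of every endothelial value above.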
